A study of Mus musculus with 6 samples.

Results

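The ATP-binding cassette (ABC) genes that code for liver exporters of drugs, conjugates and sterols that were followed here were Abcc2, Abcc3, Abcc4, Abcc6, Abcg2, Abcg5, Abcg8, Abca1, Abcb1a and Abcb1b. They were chosen by name, with earlier results of these data known, and found through the transcript accession that the scanner files give for each probe. The same holds for the other gene lists, so shares of a list set beside those of all genes are descriptions and no test. All 10 were on the array, with 16 of its 41174 non-control probes, and all 10 were among the 21059 genes and unmatched transcripts bright enough to be tested. RNA came from livers of mice with a liver-specific knockout of the small Maf genes (sMaf CKO, 3 samples) and from control wild-type livers (3 samples). All mice were 5 weeks old and on a mixed background of 129Sv/J, C57BL/6J and ICR. Each sample was read on its own one-colour (Cy3) Agilent array. The labels name neither the small Maf genes deleted nor the driver of the deletion, the sex of the mice or any pooling, and the submitters call the RNA samples independent.

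ABC exporters use ATP to move substrates out of a cell. In hepatocytes they sit on 2 faces: some load bile across the canalicular membrane, and others return substrates to blood across the basolateral membrane. The Abcc family carries conjugates with glutathione, glucuronide or sulfate, Abcb1 genes code for P-glycoprotein, and Abcg5, Abcg8 and Abca1 move sterols. Several of these genes are known targets of NRF2, which binds DNA with a small Maf partner, and others of the nuclear receptors LXR, CAR, PXR and PPARα.

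A level below is the log2 processed intensity of a probe minus the 75th percentile of its array, so levels of different probes are not compared with each other. A difference is the mean level in sMaf CKO liver minus that in control liver, from limma's linear model over all genes tested. The 75th percentile of the processed intensity ran from 484.4 to 960.5 over the sMaf CKO arrays and from 483.4 to 609.3 over the control arrays. The share of probes well above background was 58.7% to 73.6% on sMaf CKO arrays and 58.0% to 69.7% on control arrays. Replicates 1 and 2 of both genotypes lay on 1 slide and replicate 3 of both on the other, so values within slide 2 compare 1 array with 1. The level of Mafg, one of the small Maf genes, was -2.97, -4.36 and -0.76 on sMaf CKO arrays 1, 2 and 3, against 1.88, 1.87 and 2.23 on control arrays (difference -4.69, SE 0.79, limma adjusted p = 0.0533, or 0.0207 with slide as a block). Maff and Mafk differed by 0.15 (limma adjusted p = 0.911) and 0.21 (limma adjusted p = 0.759), and whether the probes lie in a deleted part is not stated. Over all genes tested, 114 (0.541%) passed a Benjamini-Hochberg adjusted p of 0.05, 71.1% of them higher in sMaf CKO liver, against 81.8% of 22 genes under quantile normalization.

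The exporters Abcg8, Abcc3, Abcc6 and Abcg5 read lower on every sMaf CKO array than on any control array, with mean levels between 26.6% and 35.9% of control. Abcc4 alone of the 10 read higher on every sMaf CKO array. For the other 5 the arrays of the genotypes overlapped. None of the 10 reached an adjusted p under 0.05 in limma (0 of 10, against 0.541% of all genes), while 5 had an unadjusted p under 0.05, against 16.8% of all genes (4 lower, against 8.1%, and 1 higher, against 8.71%). With slide as a block in the model, Abcc6, Abcc3 and Abcg8 passed (3 of 10, all lower, against 1.61% of all genes, or 0.622% lower). The arrays did not overlap for 5 of 10 members, against 22.9% of all genes (4 lower, against 11.6%, and 1 higher, against 11.3%). The median difference of the 10 was -0.27, beside -0.05 for all genes tested. In whole liver, fewer cells of a type and less RNA per cell cannot be told apart.

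**Figure D1:**
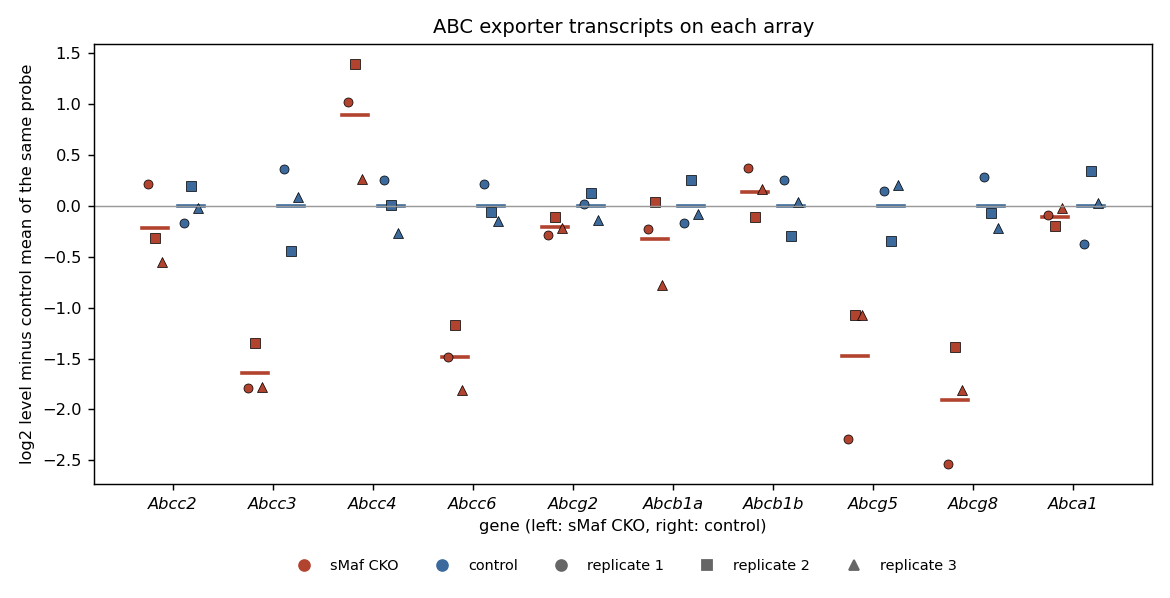
Level of each ABC exporter transcript on each array, as the log2 difference from the mean of the control arrays for the same probe. Red points are the 3 sMaf CKO arrays and blue points the 3 control arrays (shape gives the replicate), and bars are group means. All red points of Abcc3, Abcc6, Abcg5 and Abcg8 lie below the blue ones, and those of Abcc4 above them.

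Abcc3 codes for a basolateral exporter that returns glucuronide conjugates and bile acids from hepatocytes to blood. Its level was 2.28, 2.72 and 2.29 on sMaf CKO arrays 1, 2 and 3, against 4.43, 3.63 and 4.15 on control arrays 1, 2 and 3. The groups were apart by 0.91 between the closest arrays, sMaf CKO 2 and control 2. The mean was 2.43 ± 0.25 in sMaf CKO liver and 4.07 ± 0.41 in control liver (SD, n = 3 each), a difference of -1.64 (SE 0.28, 95% interval -2.28 to -0.999, limma adjusted p = 0.0533). It was -1.53 within slide 1 and -1.86 within slide 2, and passed with slide as a block (limma adjusted p = 0.0445) and without control replicate 2 (-1.86, limma adjusted p = 0.0462). A second, dimmer probe of Abcc3 was well above background on all arrays and differed by -1.40.

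Abcc4 codes for another basolateral exporter, which carries bile acids together with glutathione, cyclic nucleotides and nucleotide analog drugs. Its level was -0.18, 0.20 and -0.93 on sMaf CKO arrays, against -0.94, -1.19 and -1.46 on control arrays. The groups were apart by 0.0092, between sMaf CKO 3 and control 1. The difference was 0.89 (SE 0.32, 95% interval 0.14 to 1.65), with an unadjusted p of 0.0264 and a limma adjusted p of 0.238, so the gene did not pass. It was 1.07 within slide 1 and 0.53 within slide 2. The other probe of Abcc4 differed by 0.37 on average, 0.67 within slide 1 and -0.22 within slide 2, where both arrays were not well above background for it. Within an array, the log2 ratio of the Abcc4 to the Abcc3 signal, which scaling a whole array by a constant cannot move, differed by 2.53. It ranged from -3.22 to -2.46 in sMaf CKO liver and from -5.61 to -4.81 in control liver. The exact two-sided permutation p over the 6 arrays was 0.1, the smallest that 3 against 3 arrays allow (0.133 adjusted over the 4 pairs compared, which were chosen after their values were seen). Abcc3 read lower and Abcc4 higher on every sMaf CKO array, so this ratio had to separate the groups. Its p was fixed by that and adds no support.

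Abcc2 codes for the canalicular exporter of bilirubin glucuronides and glutathione conjugates. Its level was 3.98, 3.45 and 3.22 on sMaf CKO arrays, against 3.60, 3.96 and 3.74 on control arrays. The groups overlapped, with sMaf CKO 1 the highest array of all. The difference of -0.22 (SE 0.26, 95% interval -0.83 to 0.39, limma adjusted p = 0.71) turned to 0.082 when arrays were scaled on spike-in probes. The Abcc3 to Abcc2 ratio within an array ranged from -1.70 to -0.73 in sMaf CKO liver and from -0.33 to 0.83 in control liver. It differed by -1.42 (exact permutation p = 0.1, the smallest possible, adjusted 0.133). This pair too was chosen after its values were seen.

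Promoter windows of 250 bases before to 50 after a transcript start (RefSeq, GRCm38.p6) were at hand for 8 of the 10 genes, 12 windows in all. Abcc3 and Abcc6 had no window and were not searched. The 12 windows were searched on both strands for TGACNNNGC, the core of the element that NRF2 and other CNC factors bind with small Maf proteins. It was found in 4 of the 12 windows, of 3 genes (Abcc2, Abcc4 and Abcb1a), against 12.4% of 32851 windows. The 110 bases before the starts of Abcc2 and Abcc4 are shown because these genes have the letters there and did not read lower on every sMaf CKO array. Capitals mark the match, which in the first Abcc4 stretch lies on the opposite strand.
Abcc2, chr19:43782198-43782307, plus strand: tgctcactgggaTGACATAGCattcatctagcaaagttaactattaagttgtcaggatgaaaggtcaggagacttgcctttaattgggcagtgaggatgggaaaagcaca
Abcc4, upstream start, chr14:118706220-118706329, minus strand: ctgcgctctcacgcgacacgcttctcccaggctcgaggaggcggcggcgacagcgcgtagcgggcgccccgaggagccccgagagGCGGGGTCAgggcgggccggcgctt
Abcc4, second start, chr14:118676932-118677041, minus strand: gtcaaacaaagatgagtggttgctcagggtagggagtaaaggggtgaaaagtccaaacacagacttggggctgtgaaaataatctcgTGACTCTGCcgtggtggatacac
A match is a string of letters and no measure of binding.

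Abcc6 codes for a basolateral protein of hepatocytes whose loss in humans causes pseudoxanthoma elasticum, a disease of soft-tissue calcification, and which is needed for ATP release. Its level was -0.40, -0.09 and -0.72 on sMaf CKO arrays, against 1.30, 1.02 and 0.93 on control arrays. Every sMaf CKO array lay at least 1.02 below the lowest control array. The mean was -0.40 ± 0.32 in sMaf CKO liver and 1.08 ± 0.19 in control liver (SD, n = 3 each), a difference of -1.49 (SE 0.24, 95% interval -2.05 to -0.92, limma adjusted p = 0.0523). It was -1.40 within slide 1 and -1.65 within slide 2, and passed with slide as a block (limma adjusted p = 0.0293). Of the 10 members it had the smallest p, the 139th of 21059, and it was read by 1 probe.

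Abcg5 and Abcg8 code for the subunits of one transporter, which moves cholesterol and plant sterols into bile. Both are known targets of LXR. The level of Abcg8 was -2.36, -1.20 and -1.63 on sMaf CKO arrays, against 0.46, 0.11 and -0.03 on control arrays. The difference was -1.91 (SE 0.33, 95% interval -2.67 to -1.15, limma adjusted p = 0.0555), or 3.76-fold lower, the largest of the 10. It was -2.07 within slide 1 and -1.60 within slide 2, passed with slide as a block (limma adjusted p = 0.0470), and was -1.79 by a second probe. Relative to the control mean, Abcg8 stood at 17.2%, 38.3% and 28.5% on sMaf CKO arrays 1, 2 and 3.

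The level of Abcg5 was 3.57, 4.79 and 4.79 on sMaf CKO arrays, against 6.01, 5.51 and 6.07 on control arrays. The groups did not overlap, and sMaf CKO 1 stood below the other two, as it did for Abcg8. The difference was -1.48 (SE 0.37, 95% interval -2.35 to -0.61, limma adjusted p = 0.131), -1.07 without sMaf CKO replicate 1, and did not pass with slide as a block either (limma adjusted p = 0.0864). The log2 ratio of Abcg8 to Abcg5 within an array averaged -6.12 in sMaf CKO liver and -5.68 in control liver. The ranges overlapped (difference -0.43, exact permutation p = 0.3). The smallest p that 3 against 3 arrays allow is 0.1, so this test cannot decide whether the 2 subunits changed unequally.

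Abcg5 and Abcg8 are neighbours read in opposite directions. The 109 bases between their starts (RefSeq, GRCm38.p6, plus strand) are shown because both genes read lower on every sMaf CKO array. The first base lies next to the Abcg5 start and the last next to the Abcg8 start, and capitals mark TTATCT, which is AGATAA, a box of GATA factors, on the opposite strand.
Abcg5 to Abcg8, chr17:84683012-84683120: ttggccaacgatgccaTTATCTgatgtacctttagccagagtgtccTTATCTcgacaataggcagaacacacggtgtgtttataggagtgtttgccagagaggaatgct
At least 1 such box, on either strand, occurs in 11.2% of the 32851 promoter windows, which are longer than this stretch. Of the 12 windows of the members, 2 hold it, those of Abcg5 and Abcg8, which share this DNA. Both also hold another box outside the stretch shown, past the Abcg5 start. The windows of both genes held neither TGACNNNGC nor CAAGGNCA, a site of the receptor LRH-1 (6.71% of windows), which says nothing about those factors.

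Abca1 codes for the exporter that loads cholesterol onto apolipoprotein A-I and is, like Abcg5 and Abcg8, a known LXR target. Its level was 3.14, 3.03 and 3.21 on sMaf CKO arrays, against 2.86, 3.57 and 3.26 on control arrays. The sMaf CKO arrays lay inside the range of the control arrays. The difference was -0.11 (SE 0.24, 95% interval -0.68 to 0.46, limma adjusted p = 0.859), and was positive after spike-in scaling or quantile normalization. The log2 ratio of Abcg8 to Abca1 within an array ranged from -5.49 to -4.23 in sMaf CKO liver and from -3.46 to -2.39 in control liver. It differed by -1.80 (exact permutation p = 0.1, the smallest possible, adjusted 0.133), for a pair chosen after its values were seen.

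Abcg2, an exporter of urate, sulfate conjugates and many drugs, had levels of 2.34, 2.52 and 2.41 on sMaf CKO arrays, against 2.64, 2.75 and 2.49 on control arrays. sMaf CKO 2 and control 3 overlapped. The difference was -0.21 (SE 0.20, 95% interval -0.67 to 0.26, limma adjusted p = 0.635), -0.32 by the second probe and 0.094 under spike-in scaling. The interval covers levels of 62.8% to 119.6% of control.

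Abcb1a and Abcb1b code for the 2 rodent P-glycoproteins, which export many lipophilic drugs. They are close paralogs, and whether a probe of one also reads the other was not tested. Abcb1a had levels of -2.84, -2.57 and -3.39 on sMaf CKO arrays, against -2.78, -2.35 and -2.69 on control arrays (difference -0.33, SE 0.27, 95% interval -0.96 to 0.31, limma adjusted p = 0.581). Its groups overlapped, with sMaf CKO 3 the lowest array, and the difference was -0.14 within slide 1 and -0.70 within slide 2. Abcb1b had levels of 2.58, 2.09 and 2.37 on sMaf CKO arrays, against 2.46, 1.91 and 2.24 on control arrays (difference 0.14, SE 0.24, 95% interval -0.43 to 0.71, limma adjusted p = 0.806). Its groups overlapped too. A second Abcb1b probe also differed by 0.14 on average, but by 0.32 within slide 1 and -0.24 within slide 2. Another was not well above background on any array.

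**Figure D2:**
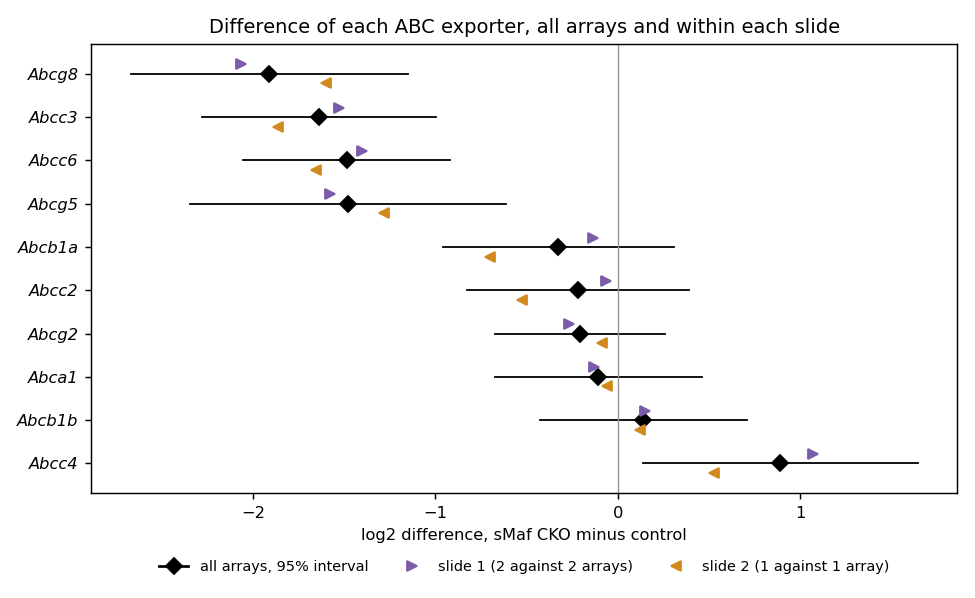
Log2 difference, sMaf CKO minus control, of each ABC exporter. Diamonds and lines are limma's estimate from all 6 arrays with its 95% interval, and triangles are the differences within slide 1 (2 against 2 arrays) and slide 2 (1 against 1). The 4 lowest genes, from -1.91 to -1.48, are below -1.2 on both slides.

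The distance of Abcc6, Abcc3 and Abcg8 from the threshold was small, and their call depended on the setting. All 3 passed with slide as a block, with eBayes trend and robust settings, with median scaling, and when only probes well above background on all 6 arrays were tested. They had adjusted p-values of 0.324 to 0.545 under spike-in scaling, which raised the difference of a typical gene by 0.30, and of 0.182 with no filter on dim probes (limma). Their differences stayed between -2.17 and -1.19 under every setting run.

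**Figure D3:**
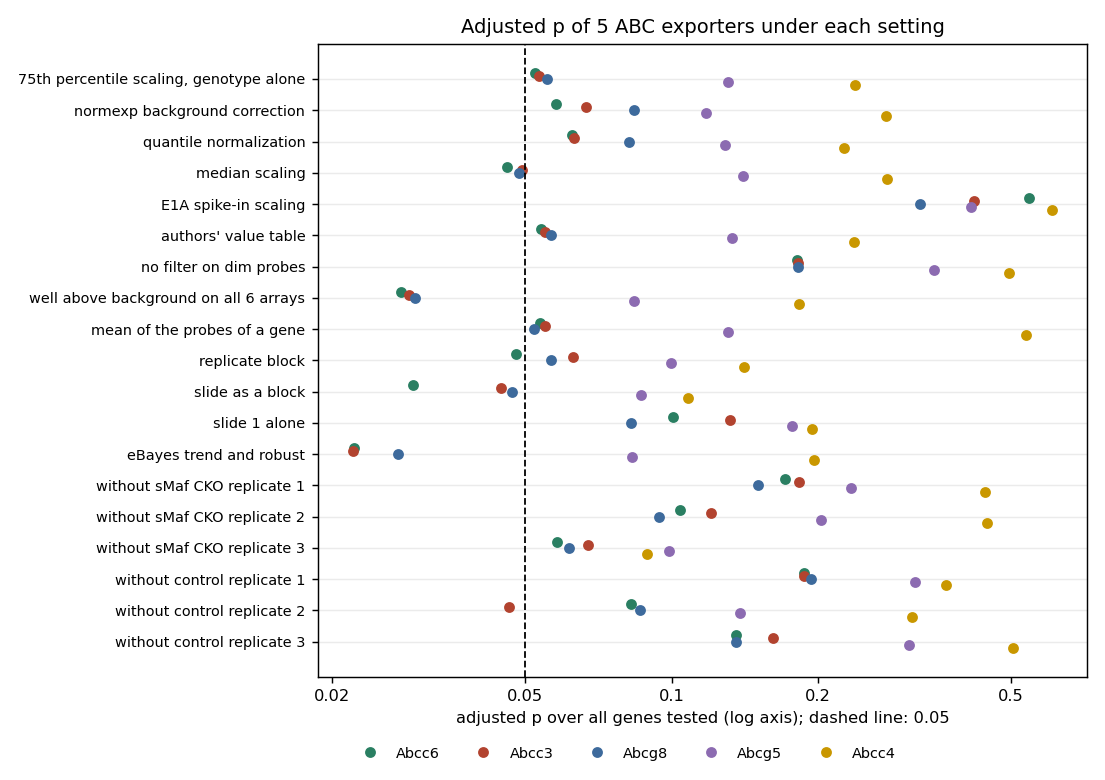
Adjusted p from limma over all genes tested (log axis) for 5 ABC exporters under each setting run with a test, with the 0.05 threshold dashed. Points of Abcc6, Abcc3 and Abcg8 lie on both sides of the line, and those of Abcg5 and Abcc4 stay to its right.

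Among 30 tested genes of the other ABC transporters, 0 of 30 reached the adjusted threshold in limma, 8 had an unadjusted p under 0.05, against 16.8% of all genes (6 lower, against 8.1%, and 2 higher, against 8.71%), and their median difference was -0.25. Abca8a, an ABCA-class lipid transporter, had the smallest p (-1.54, SE 0.28, limma adjusted p = 0.0659) and passed with slide as a block (limma adjusted p = 0.0387). Abca2, another lipid transporter, differed by -1.12 (limma adjusted p = 0.113). The canalicular exporter genes Abcb11 and Abcb4 overlapped between the genotypes, unlike Abcg5 and Abcg8 above. Abcb11, the bile salt export pump, differed by 0.10 (SE 0.30, limma adjusted p = 0.899), and Abcb4, which moves phosphatidylcholine into bile, by 0.20 (SE 0.27, limma adjusted p = 0.75). Abcc5, chosen after its values were seen, read higher on every sMaf CKO array, as Abcc4 did (1.07, SE 0.27, limma adjusted p = 0.128). It codes for an exporter of cyclic nucleotides.

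Bile acid and organic anion transporters had a median difference of -0.56 over 12 tested genes (-0.66 within slide 1, -0.09 within slide 2), with 0 of 12 past the adjusted threshold in limma. An unadjusted p under 0.05 was reached by 5, against 16.8% of all genes (4 lower, against 8.1%, and 1 higher, against 8.71%). Abcb11 and Abcb4 were counted both here and among the other ABC transporters. Slc10a1, the uptake carrier of bile acids from blood, had levels of 2.82, 3.67 and 3.38 on sMaf CKO arrays, against 5.41, 5.01 and 4.82 on control arrays (difference -1.79, SE 0.29, limma adjusted p = 0.0523). Slc51b, a subunit of a basolateral bile acid exporter, had levels of 0.16, 1.02 and -0.34 on sMaf CKO arrays, against -0.97, -1.07 and -2.08 on control arrays (difference 1.65, SE 0.43, limma adjusted p = 0.141). Neither overlapped between genotypes, and both passed with slide as a block (limma adjusted p = 0.0394 for Slc10a1 and 0.0383 for Slc51b).

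The listed enzymes that make the conjugates carried by the Abcc exporters had negative differences in 15 of 15 tested genes, against 54.7% of all genes. Their median difference was -0.99 over all arrays, -1.05 on slide 1 and -0.79 on slide 2. In limma 0 of 15 reached the adjusted threshold, and 9 had an unadjusted p under 0.05, all lower, against 8.1% of all genes. Ugt2b1, a glucuronosyltransferase, differed by -2.46 (SE 0.45, limma adjusted p = 0.0665) and passed with slide as a block (limma adjusted p = 0.0234), and Ugt2b36, another, stood at 49.9% of control (limma adjusted p = 0.0859). Ugt1a1, the enzyme that conjugates bilirubin and so supplies Abcc2, differed by -1.70 (SE 0.39, limma adjusted p = 0.107). It was named after its values were seen and passed with slide as a block (limma adjusted p = 0.0366). The count of 15 depends on how genes were assigned to lists. It includes the glutathione S-transferase gene Gstm1 (-0.64, limma adjusted p = 0.309), which was also counted with the NRF2-linked genes. It leaves out Gsta1, another glutathione S-transferase gene, which rose by 2.93 (limma adjusted p = 0.0117). Ugdh, a gene of the glucuronide pathway that read higher on every sMaf CKO array, is left out too (0.78, limma adjusted p = 0.189). Gsta1 and Ugdh were counted with the NRF2-linked genes, of which 9 of 13 tested had a negative difference.

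Of 15 tested receptors and regulators of exporter genes, 0 of 15 reached the adjusted threshold in limma. An unadjusted p under 0.05 was reached by 6, against 16.8% of all genes (5 lower, against 8.1%, and 1 higher, against 8.71%). Of the 15, 13 had a negative difference, against 54.7% of all genes, and the median was -0.35. Nr1i3, which codes for CAR, had levels of 0.51, 1.69 and 2.56 on sMaf CKO arrays, against 3.97, 3.35 and 3.92 on control arrays (difference -2.16, SE 0.49, limma adjusted p = 0.107). Ppara, the fatty acid receptor, differed by -1.03 (SE 0.25, limma adjusted p = 0.116). The LXR genes Nr1h3 and Nr1h2 differed by -0.27 (limma adjusted p = 0.600) and 0.0079 (limma adjusted p = 0.991), and their arrays overlapped. Nfe2l2, which codes for NRF2, differed by 0.68 (SE 0.20, limma adjusted p = 0.167). The last 3 were named for their role after their values were seen.

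LXR-linked sterol genes other than the members had 0 of 12 past the adjusted threshold in limma and a median of -0.20. An unadjusted p under 0.05 was reached by 3 of these 12, against 16.8% of all genes (2 lower, against 8.1%, and 1 higher, against 8.71%). Of the 12, Nr1h3 and the ABC transporter gene Abcg1 were also counted in the lists above. Lpcat3, a phospholipid acyltransferase, differed by -0.92 (limma adjusted p = 0.162) and Srebf1, the lipogenic regulator, by -0.96 (limma adjusted p = 0.202). Of 13 tested NRF2-linked conjugation and antioxidant genes, 2 rose and 0 fell in limma's adjusted test (0.385% and 0.157% of all genes did), with a median of -0.51. An unadjusted p under 0.05 was reached by 3 with higher levels, against 8.71% of all genes, and by 5 with lower levels, against 8.1%. Gsta1, a glutathione S-transferase with close paralogs, rose by 2.93 (SE 0.26, limma adjusted p = 0.0117), and Hmox1, the inducible haem oxygenase, by 3.13 (SE 0.38, limma adjusted p = 0.0344). The quinone reductase gene Nqo1 (-1.66, limma adjusted p = 0.12) and the glutathione synthesis genes Gclc (-1.03, limma adjusted p = 0.124) and Gclm (-0.96, limma adjusted p = 0.214) read lower on every sMaf CKO array than on any control array, and did not pass. These 3 were named after their values were seen.

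Levels of the markers of several cell types on the same arrays are given here as the sum over a list's tested genes in multiples of the array's 75th percentile. Such a sum is set mostly by the brightest probes of the list and is no measure of cell number. On sMaf CKO 1 these were Marco and Cd5l for macrophages (log2 levels of 7.69 and 7.11) and Spp1 for cholangiocytes (5.58). All 7 tested hepatocyte markers had negative differences (median -0.45), with sums of 1405 to 2339 in sMaf CKO liver and 2102 to 2538 in control liver. Their sums overlapped, and their median was -0.59 within slide 1 and -0.07 within slide 2. All 7 tested macrophage markers had positive differences (median 0.61), with sums of 179.6 to 404.5 in sMaf CKO liver and 77.5 to 127.6 in control liver. All 8 stellate and fibroblast markers did too (median 0.45, sums of 118.9 to 147.2 in sMaf CKO liver and 80.6 to 104.5 in control liver). The sums also overlapped for cholangiocyte markers (11.5 to 50.3 in sMaf CKO liver, 9.96 to 12.3 in control liver), endothelial markers (44.4 to 59.5 and 49.1 to 69.9), erythroid markers (132.3 to 280.8 and 92.5 to 211.2) and lymphocyte markers (1.57 to 5.31 and 1.85 to 2.31). No marker reached the adjusted threshold in limma. The macrophage receptor gene Marco (3.73, limma adjusted p = 0.0859) passed with slide as a block (limma adjusted p = 0.0107). The other genes with the smallest p of their lists had limma adjusted p-values of 0.143 to 0.464. Their differences were -0.57 for Apoa1 and -0.61 for Tat of hepatocytes, 0.88 for Cd5l of macrophages, and 0.79 for Lrat and 0.86 for Col1a1 of stellate cells and fibroblasts. They were 0.89 for Epcam and 1.03 for Spp1 of cholangiocytes, -0.56 for Kdr and -0.46 for Stab2 of endothelium, -1.56 for Klf1 and 0.77 for Alas2 of erythroid cells, and 0.80 for Ptprc and 1.30 for Cd8a of the lymphocyte list. Differences were positive in 7 of 8 tested cholangiocyte, 3 of 8 endothelial, 3 of 6 erythroid and 6 of 8 lymphocyte markers. Cd8a stood at 1054%, 112% and 126% of the control mean on sMaf CKO arrays 1, 2 and 3, and Spp1 at 503%, 103% and 164%. The part of the other cell types in the exporter differences was not tested.

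**Figure D4:**
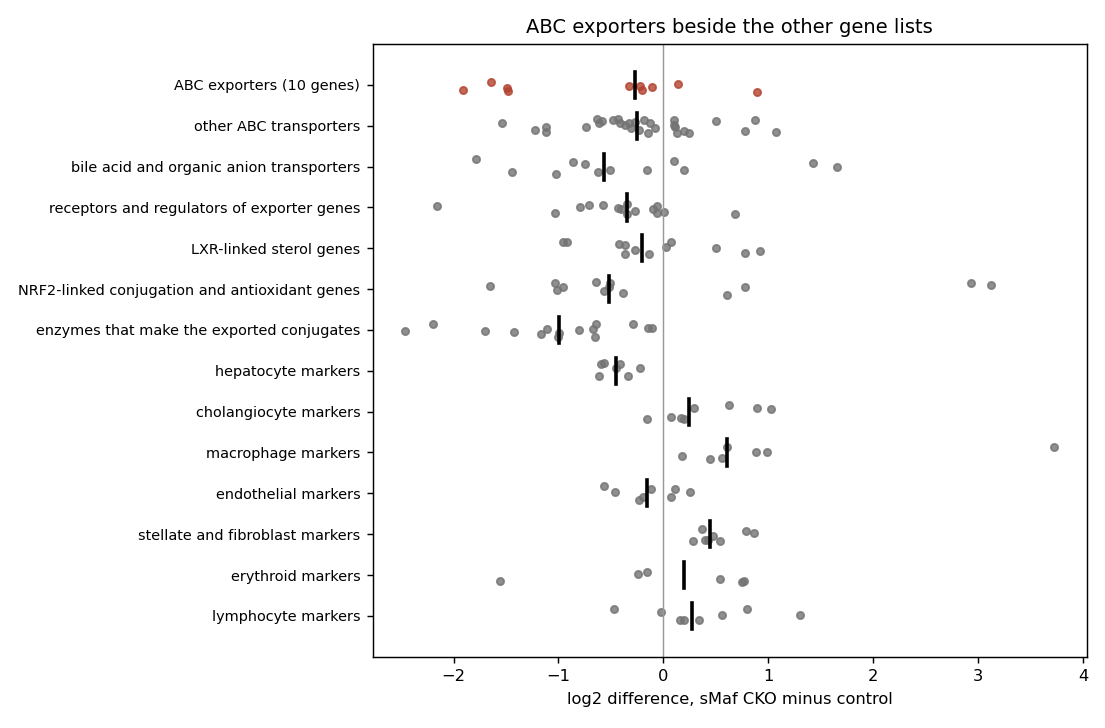
Log2 difference, sMaf CKO minus control, of every tested gene in each list (points, with small random vertical spread) and the list's median (bar). The ABC exporters (red) fall into a low set of 4, a middle set of 5 near 0 and Abcc4 at 0.89.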

How the data were processed

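Per the file headers, the authors extracted spot intensities with Agilent Feature Extraction 10.7.3.1 from one-colour arrays. The deposited processed intensity is background-subtracted and detrended within its array. Other flags deposited by the authors (0 or 1) mark outlier spots and spots well above background. The authors also deposited a table of log2 values, with no account of its making in the labels or headers. Its columns follow log2 processed intensity minus the 75th percentile, with the median over arrays taken off each probe (r above 0.999 on each array over 41121 probes, 99% of differences within 0.0107), with medians of -0.10, -0.11 and 0.09 for sMaf CKO 1 to 3 and 0.05, -0.02 and 0.08 for control 1 to 3.

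Outlier spots and control spots were left out, spots of a probe were averaged, and the 75th percentile of each array was subtracted on the log2 scale. Kept probes were those well above background on 3 or more of 6 arrays (27859 of 41174), and 0 of them was saturated. Accessions were named through the RefSeq table of GRCm38.p6 (26690 probes matched), while the headers name mm9 for the array. The coordinates given are those of the promoter sequences, on GRCm38.p6, and none is taken from the array. The probe with the highest mean stood for a gene. The genotype difference was fitted in R 4.3.3 by limma 3.58.1 (functions lmFit and eBayes, no covariate), with Benjamini-Hochberg adjustment over all 21059 genes. The fit was also run on simulated data with independent normal noise for each gene and no slide effect. That run does not address how the calls depend on the processing. The number of arrays limits the precision.

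The text names all 10 exporters, and for each list up to 4 genes past the threshold or else the 2 with the smallest p, along with Abcb11, Abcb4 and small Maf genes. Abcc5, Ugt1a1, Gstm1, Ugdh, Nr1h3, Nr1h2, Nfe2l2, Abcg1, Nqo1, Gclc and Gclm fall outside that rule and were named after their values were seen. The members and lists were chosen with earlier results of these data known. The alternatives tried are named with their effects in the closing section. Normexp took the median spot and background signals, as a mean spot signal was not at hand.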

Additional observations from a re-analysis of the deposited data

How the results depend on the processing

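Of the 4 exporters lower on every sMaf CKO array, and Abcc4, none changed sign under any setting run. Abcc3 (-1.64), Abcc6 (-1.49) and Abcg8 (-1.91) passed with only probes well above background on all 6 arrays, with slide as a block and with eBayes trend and robust settings, none of which moves these differences. They also passed with median scaling (-1.66, -1.51 and -1.93). The count of exporters past the threshold was 3 under each of these 4 settings, and 0 or 1 when an array was left out (1 without control replicate 2, which was Abcc3). With an array left out, Abcc3 lay between -1.86 and -1.46, Abcc6 between -1.64 and -1.33 and Abcg8 between -2.17 and -1.60. The sign turned under spike-in scaling for Abcc2 (0.082), Abcg2 (0.094) and Abca1 (0.19), and under quantile normalization for Abca1 (0.019). With an array left out, Abca1 lay between -0.29 and 0.064 and Abcb1b between -0.0076 and 0.27, both crossing 0 without control replicate 2. Abcb1a (-0.33) was -0.70 within slide 2, -0.050 with normexp and -0.024 under spike-in scaling, and lay between -0.51 and -0.098 with an array left out. Abcc2 lay there between -0.43 and -0.054, and Abcc4 between 0.64 and 1.20. With the mean of the probes of a gene, Abcc4 was 0.63. The count of genes past the threshold over the whole array, 114, was 112 from the authors' deposited table, 104 with the mean of the probes of a gene, 74 with normexp, 22 with quantile normalization, 252 with median scaling, 12 with spike-in scaling, 1 with no filter, 267 with the strict filter, 340 with slide as a block, 196 on slide 1 alone and 308 with trend and robust settings. Leaving out sMaf CKO array 1, 2 or 3 gave 3, 11 and 294 genes, and leaving out control array 1, 2 or 3 gave 6, 175 and 22. With the replicate block it was 291, and 1 exporter passed (Abcc6, -1.49). The replicate numbers were not taken as pairs, since the deviations of same-numbered arrays from their group means correlated at 0.06, 0.17 and 0.42, and sMaf CKO 1 followed control 2 more closely (0.29). The cause of these changes was not tested.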

Other observations

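Among 14179 genes with a symbol and a value on every array, those whose levels over the 6 arrays followed Abcc6 most closely were Hnrnpll, Hspb6 and Arhgap21 (Pearson r from 0.997 to 0.999). Those that followed Abcc3 were Acvr2b, Snx14 and Tpd52l1 (r from 0.993 to 0.995). These values describe 6 arrays that share the split by genotype and carry no test.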
